A study of Mus musculus with 8 samples.

Results

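The genes described here are 10 mouse genes of the skeletal muscle programme, taken by name from a table of 35275 genes measured in 8 tumours. They are the satellite cell genes Pax7, Pax3 and Cdh15, the 4 MyoD family transcription factor genes Myf5, Myod1, Myog and Myf6, and the acetylcholine receptor subunit genes Chrna1, Chrnd and Chrng. All 10 were found, each once. In the GRCm38 positions of the table, Myod1 is at chr7:46376474-46379092, Myog at chr1:134289989-134292548, Myf5 at chr10:107482908-107486134, Myf6 at chr10:107492860-107494729 and Cdh15 at chr8:122848374-122867397. Pax7 is at chr4:139737062-139833528, Pax3 at chr1:78101267-78197134, Chrnd at chr1:87190607-87200070, Chrng at chr1:87204657-87212694 and Chrna1 at chr2:73563215-73580338. They were chosen by earlier results on these same counts, so their levels in the tumours are a description and carry no test.

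Bulk RNA sequencing was done on tumours of conditional mice that had an adenovirus carrying Cre injected into the peritoneum. In 4 primary peritoneal tumours (13, 14A, 59 and 61) the mice carried floxed Nf2, floxed Cdkn2a and floxed Pak2, and the tumours are labelled Nf2-/-, cdkn2a-/- and Pak2 -/-. Tumour 14B has the same alleles and label and is a secondary tumour. In 3 primary peritoneal tumours (19, 20 and 127) Nf2 and Cdkn2a were floxed and are labelled deleted in the same way, while Pak2 was wild-type. The labels give neither the promoter that drives Cre, nor the age of the mice, nor whether each tumour is from its own animal, so error values measure the spread between these tumours.

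Skeletal muscle is built in steps. Pax3 and Pax7 mark muscle progenitors, Pax7 being the marker of the adult satellite cell, and Cdh15 encodes M-cadherin, an adhesion molecule of satellite cells and myoblasts. Myf5 and Myod1 commit cells to the muscle lineage, Myog drives their differentiation into fibres, and Myf6 (MRF4) acts in differentiation and is the main family member of adult fibres. These 4 factors pair with E proteins and bind the E-box, a short DNA motif written CANNTG. Chrna1, Chrnd and Chrng encode the alpha, delta and gamma subunits of the muscle acetylcholine receptor. Gamma belongs to the fetal receptor and is replaced by epsilon (Chrne) when the nerve-muscle junction matures. MyoD and myogenin are stained for in pathology to recognise tumours with muscle differentiation.

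The deepest library, tumour 14A, held 20402401 counts and the shallowest, tumour 14B, held 13469851. Levels are CPM, counts scaled to the size of the library. Where a gene has 0 counts, up to 3 are still compatible with it, which is 0.139 to 0.193 CPM among the primary tumours and 0.311 CPM for tumour 14B, by counting error alone. Pak2 RNA averaged 180.0 ± 44.9 CPM (SD, n = 4) under the Pak2-null label and 103 ± 20.9 CPM (SD, n = 3) in wild-type tumours. It was not lower under the label, and whether Pak2 was lost cannot be read from these counts. The tumours are therefore called labelled Pak2-null throughout. Nf2 averaged 99.97 ± 20.2 CPM under the Pak2-null label and 119 ± 20.0 CPM in wild-type tumours, and Cdkn2a 4.87 ± 0.749 CPM under that label and 2.84 ± 0.409 CPM in wild-type tumours (SD, n = 4 and 3). Counts of a whole gene do not show whether reads came from a deleted exon. Of the markers of mesothelium, the lining from which mesothelioma arises, mesothelin (Msln) spanned 1.11 to 132 CPM across primary tumours labelled Pak2-null and 22.8 to 26.2 CPM across wild-type tumours. Wt1 spanned 2.22 to 8.78 CPM in primary tumours labelled Pak2-null and 1.99 to 18.3 CPM in wild-type tumours. Calretinin (Calb2) did not exceed 0.308 CPM in any of the 8 tumours, and the 12 mesothelial markers summed to 105 to 462 CPM in primary tumours labelled Pak2-null, 298 CPM in tumour 14B and 133 to 426 CPM in wild-type tumours. The lowest wild-type sum was that of tumour 127, of which Pdpn made up 97.3 CPM, while its keratin genes Krt8, Krt18 and Krt19 were at 1.41 to 1.86 CPM. Summed immune markers were at 2233 CPM in tumour 14A and 1989 CPM in tumour 14B, against 175 to 321 CPM in the other 6 tumours.

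Upstream sequence is shown for some of the genes and for Chrne, since E-boxes are the motif that the MyoD family binds. RefSeq windows (build GRCm38.p6) were matched for 6 of the 10 genes by symbol. In the sequences below, read 5′ to 3′ on the strand of the gene, the 250 bases before the RefSeq start of the transcript are given and capitals mark every CANNTG. Myog lies on the plus strand (chr1:134289754-134290003), as does Chrng (chr1:87205561-87205810). Chrna1 (chr2:73580339-73580588) and the adult subunit gene Chrne (chr11:70619195-70619444) lie on the minus strand. The Chrng window is counted from a RefSeq start 1154 bases inside the start given in the deposited table.
Myog: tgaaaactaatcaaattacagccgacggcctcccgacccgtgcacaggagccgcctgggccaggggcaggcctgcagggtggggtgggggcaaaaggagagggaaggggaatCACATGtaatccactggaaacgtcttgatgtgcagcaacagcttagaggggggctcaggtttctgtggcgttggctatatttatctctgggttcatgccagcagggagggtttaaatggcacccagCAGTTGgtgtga
Chrng: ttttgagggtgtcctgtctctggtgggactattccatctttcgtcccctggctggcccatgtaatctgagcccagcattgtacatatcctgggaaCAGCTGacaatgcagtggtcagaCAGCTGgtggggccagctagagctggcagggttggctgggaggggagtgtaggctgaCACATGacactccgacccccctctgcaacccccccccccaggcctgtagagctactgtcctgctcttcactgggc
Chrna1: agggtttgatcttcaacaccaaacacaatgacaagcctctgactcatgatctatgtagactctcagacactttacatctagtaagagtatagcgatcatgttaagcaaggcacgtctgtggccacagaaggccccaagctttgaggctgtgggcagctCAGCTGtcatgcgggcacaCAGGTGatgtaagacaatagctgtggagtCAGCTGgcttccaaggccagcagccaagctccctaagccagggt
Chrne: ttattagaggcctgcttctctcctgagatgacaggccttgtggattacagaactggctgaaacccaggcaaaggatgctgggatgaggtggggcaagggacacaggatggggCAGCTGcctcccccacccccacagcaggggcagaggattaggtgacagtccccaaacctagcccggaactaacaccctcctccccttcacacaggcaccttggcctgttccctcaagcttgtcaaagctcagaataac

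The form CAGCTG, which reads the same on both strands, occurred at -155 and -132 before Chrng, at -92 and -44 before Chrna1 and at -138 before Chrne, counting the base before the start as -1 and giving the first base of the motif. Of all 32851 upstream windows of this length, 13.0% held at least 1 CAGCTG and 1.26% held at least 2. Chrna1 also had a CAGGTG at -73, a form that with its reverse complement CACCTG was found in 17.2% of windows. The CANNTG matches before Myog were CACATG at -138 and CAGTTG at -12, with 0 CAGCTG. Among the matched windows not shown, that of Cdh15 held 3 CANNTG and 0 CAGCTG. Those of Pax7 and Myf5 held 0 CANNTG, so the motif was not general to the members. At least 1 CANNTG, of any form, was found in 66.2% of windows. These are letter matches and no binding was measured.

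RNA of 7 of the 10 genes was lowest in the tumours labelled Pak2-null, higher in wild-type tumour 19 and plentiful in wild-type tumours 20 and 127. Chrna1 broke that order in tumour 59, labelled Pak2-null, which was above tumour 19. Myf5 was near 0 in tumour 19 too, and Pax3 did not share the order. In the primary tumours labelled Pak2-null, tumour 61 had the highest level of 6 of the 10 genes, tumour 13 had at most 1 count of every gene but Chrna1 and Pax3, and tumour 14A had at most 6 counts of every gene but Pax3. Fewer muscle-like cells in a tumour and less muscle RNA per cell cannot be told apart in bulk RNA.

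**Figure D1:**
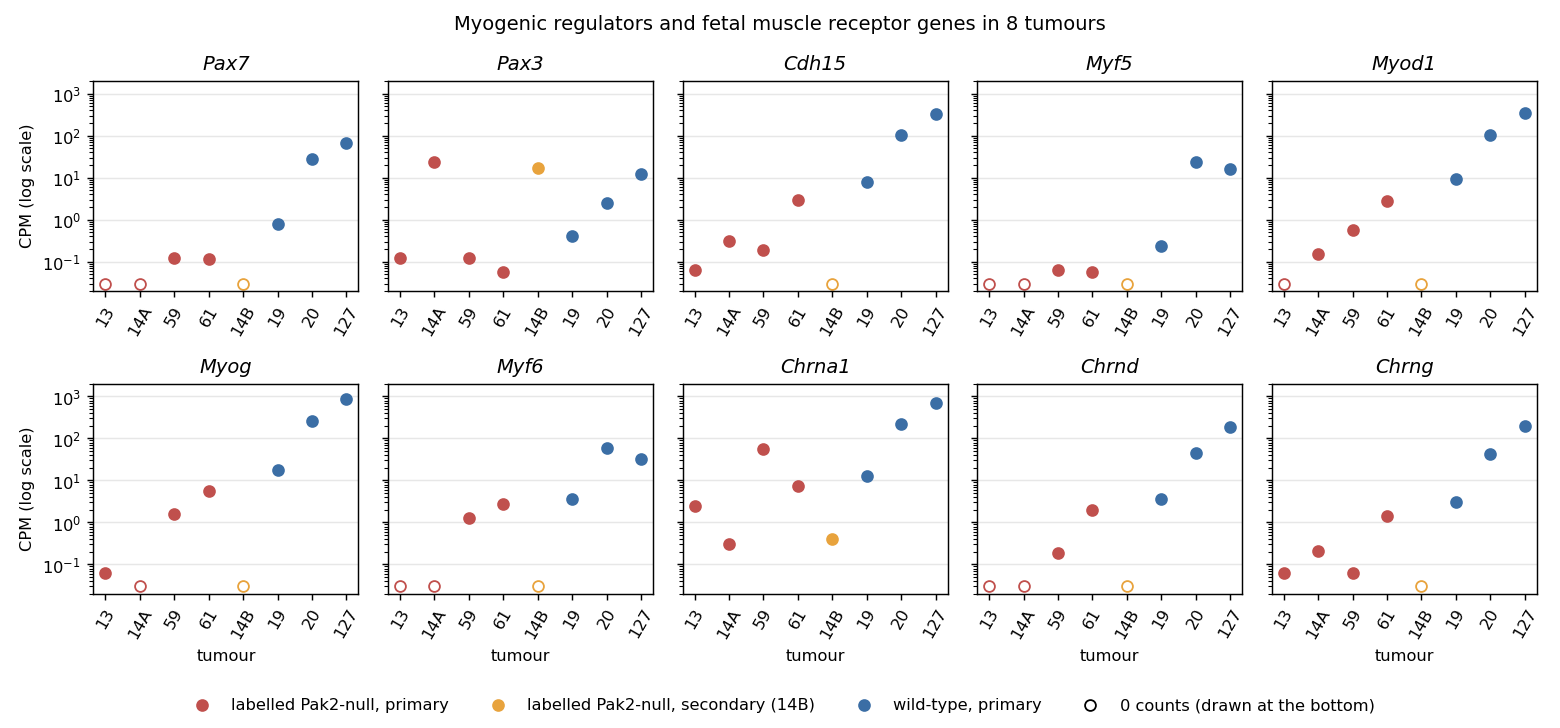
Level of each of the 10 genes in each of the 8 tumours, in CPM on a log axis. Points are single tumours, red for primary tumours labelled Pak2-null, orange for the secondary tumour 14B and blue for wild-type tumours, and open points mark 0 counts. Tumours 20 and 127 stand highest in 9 of the panels, and in the Pax3 panel tumours 14A (23.2 CPM) and 14B (17.0 CPM) do.

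Among the progenitor genes, Pax7 had 0, 0, 0.123 and 0.116 CPM in tumours 13, 14A, 59 and 61, which are 0 to 2 counts each, and 0.788, 27.5 and 67.4 CPM in wild-type tumours 19, 20 and 127. The groups did not overlap, and tumour 19 stood far nearer to the tumours labelled Pak2-null than to tumours 20 and 127. Cdh15 had 0.0619, 0.308, 0.185 and 2.89 CPM in tumours 13, 14A, 59 and 61, against 7.84, 106 and 325 CPM in tumours 19, 20 and 127. Tumour 61 was the highest of its group and still below every wild-type tumour. The log2 fold changes (labelled Pak2-null minus wild-type) were -8.91 for Pax7 (SE 1.65) and -7.38 for Cdh15 (SE 1.63), where SE is the standard error from the edgeR fit. A fold change this large over so few counts depends on the model and gives only the rough size.

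Pax3 followed another pattern. It had 0.124, 23.2, 0.123 and 0.0578 CPM in tumours 13, 14A, 59 and 61 and 17.0 CPM in the secondary tumour 14B, against 0.417, 2.55 and 12.4 CPM in wild-type tumours 19, 20 and 127. Tumours 14A and 14B, which had 0 counts of Pax7, Myog, Myf5, Myf6 and Chrnd, were the highest of the 8, and the groups overlapped. The log2 fold change was 0.22 (SE 2.04). It was 1.98 without tumour 127, and turned to -0.35 without tumour 19, to -0.12 without tumour 20 and to -2.10 with limma-voom. Without tumour 14A, Pax3 was too low to enter the fit. Among the wild-type tumours, Pax3 was highest in tumour 127, where Pax7 was too, and per length of gene it stood at 0.280 of Pax7 in tumour 127 and 0.140 in tumour 20.

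Of the determination factors, Myf5 had 0, 0, 0.0617 and 0.0578 CPM in tumours 13, 14A, 59 and 61, against 0.232, 23.3 and 16.5 CPM in tumours 19, 20 and 127. With 5 counts in tumour 19 and 0 or 1 in each tumour labelled Pak2-null, it was too low in too many tumours to enter the fit, and tumour 19 cannot be set apart from those tumours at this depth. Myod1 had 0, 0.154, 0.555 and 2.77 CPM in tumours 13, 14A, 59 and 61, against 9.09, 102 and 338 CPM in tumours 19, 20 and 127. Every wild-type tumour stood above every tumour labelled Pak2-null. Its log2 fold change was -7.40 (SE 1.67).

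Myog, the differentiation factor, reached the highest level per length of the 10 genes in all 3 wild-type tumours and in tumour 61. It had 0.0619, 0, 1.60 and 5.6 CPM in tumours 13, 14A, 59 and 61, against 17.6, 267 and 856 CPM in tumours 19, 20 and 127, and the groups did not overlap. Myf6 had 0, 0, 1.30 and 2.71 CPM in tumours 13, 14A, 59 and 61, against 3.66, 57.9 and 32.3 CPM in tumours 19, 20 and 127. The gap between tumour 61 and wild-type tumour 19 was small for Myf6, and this gene was highest in tumour 20, not in tumour 127. In log2 fold change the values were -7.69 (SE 1.98) for Myog and -4.94 (SE 1.65) for Myf6.

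For the fetal receptor, Chrng had 0.0619, 0.206, 0.0617 and 1.44 CPM in tumours 13, 14A, 59 and 61, against 3.01, 42.8 and 199 CPM in tumours 19, 20 and 127. Chrnd, its neighbour 4586 bases away on chromosome 1, had 0, 0, 0.185 and 2.02 CPM in tumours 13, 14A, 59 and 61, against 3.66, 44.9 and 183 CPM in tumours 19, 20 and 127. For both genes the groups did not overlap. Chrna1 had 2.42, 0.308, 55.3 and 7.22 CPM in tumours 13, 14A, 59 and 61, against 12.9, 219.6 and 702 CPM in tumours 19, 20 and 127, so that tumour 59 stood above wild-type tumour 19 and the groups overlapped. In log2 fold change the values were -7.48 (SE 1.65) for Chrng, -7.10 (SE 1.84) for Chrnd and -4.23 (SE 1.76) for Chrna1.

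Chrna1 in tumour 59 was not accompanied by Chrnd or Chrng. Its 896 counts compare with 3 counts of Chrnd, 1 of Chrng and 26 of Myog in that tumour. Per length, Chrna1 stood at 11.7 times Myog in tumour 59 and at 0.439 times in tumour 61, against 0.249, 0.280 and 0.280 times in wild-type tumours 19, 20 and 127. A stretch of up to 202 bases of a Chrna1 transcript matched transcripts of 64 other genes at 95% identity or more over at least 100 bases, and the part of such reads in the Chrna1 counts was not tested. No other member had such a match, and the only gene of the table that overlaps a member, Gm20388 over Cdh15, had 0 counts in all 8 tumours.

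In the fit over all genes, 9 of the 10 genes were tested. Of these, 0 passed the quasi-likelihood test of edgeR at a Benjamini-Hochberg adjusted p of 0.05, where 0.0714% of 15412 tested genes passed, 0.0519% lower and 0.0195% higher in the tumours labelled Pak2-null. At an unadjusted p under 0.05 there were 8, all lower, where 12.9% of tested genes reached it and 8.55% were lower, while DESeq2 passed 7 (7.46% of tested genes) and limma-voom 0 (0.162%). The groups did not overlap, with the tumours labelled Pak2-null lower, for 7 of these 9 genes and for 8.93% of tested genes. The median log2 fold change of the 9 was -7.38, against 0.06 over all tested genes. These counts restate the levels by which the genes were chosen, and nothing is read from them. Leaving out 1 tumour at a time, the 7 genes other than Pax3 and Chrna1 ran from -10.16 (Chrnd without tumour 61) to -4.15 (Myf6), and Chrna1 ran from -6.55 to -2.83.

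The secondary tumour 14B, like tumour 14A, held Pax3 and next to none of the other members. Tumour 14B had 0 counts of Myod1, Cdh15 and Chrng, where tumour 14A had 3, 6 and 4, and 4 counts of Chrna1, where tumour 14A had 6. Myog, Myf5, Myf6, Pax7 and Chrnd had 0 counts in both tumours. Pax3 had 164 counts in tumour 14B and 451 in tumour 14A, a difference of -0.44 in log2 CPM (14B minus 14A). With 1 tumour on each side there is no replicate check, and the labels do not say whether the pair came from 1 animal. The gene with the most counts in tumour 14B was Ctrb1, a digestive enzyme gene of the exocrine pancreas, at 5.04% of its counts. The part of pancreas RNA in the levels of tumour 14B was not tested.

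Proportions between several members varied far less across tumours 61, 19, 20 and 127 than their amounts did. Per length, Myog stood at 2.51 times Myod1 in tumour 61, labelled Pak2-null, and at 2.40, 3.26 and 3.14 times in tumours 19, 20 and 127. Cdh15 stood at 0.679 times Myod1 in tumour 61, and at 0.562, 0.684 and 0.627 times in tumours 19, 20 and 127. The ratio of Chrng to Chrnd was 0.758 in tumour 61 and 0.873, 1.01 and 1.16 in tumours 19, 20 and 127, so these neighbours stayed near parity. Myf6 did not keep its proportion to Myod1, which was 1.45 in tumour 61, against 0.599, 0.847 and 0.142 in tumours 19, 20 and 127. Nor did Myf5, at 0.204 times Myod1 in tumour 20 and 0.0435 times in tumour 127. Ratios are given only where both genes had at least 20 counts.

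The adult subunit stayed low where the fetal one was high. Chrne had 0.0619, 0, 0 and 0.231 CPM in tumours 13, 14A, 59 and 61, against 0.278, 3.91 and 3.40 CPM in wild-type tumours 19, 20 and 127. Per length, Chrng stood at 6.37 times Chrne in tumour 20 and at 34.1 times in tumour 127, the tumours in which both had enough counts. Chrnb1, the beta subunit gene shared by the fetal and adult receptors, was present everywhere, at 7.18, 7.04, 10.9 and 16.6 CPM in tumours 13, 14A, 59 and 61, against 8.07, 77.0 and 164 CPM in tumours 19, 20 and 127. For Chrnb1 tumour 19 lay within the range of the tumours labelled Pak2-null. Of the receptor subunits of neurons, 1 of 11 (Chrnb2) was tested, and Chrna3 and Chrnb3 had 0 counts in every tumour.

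**Figure D2:**
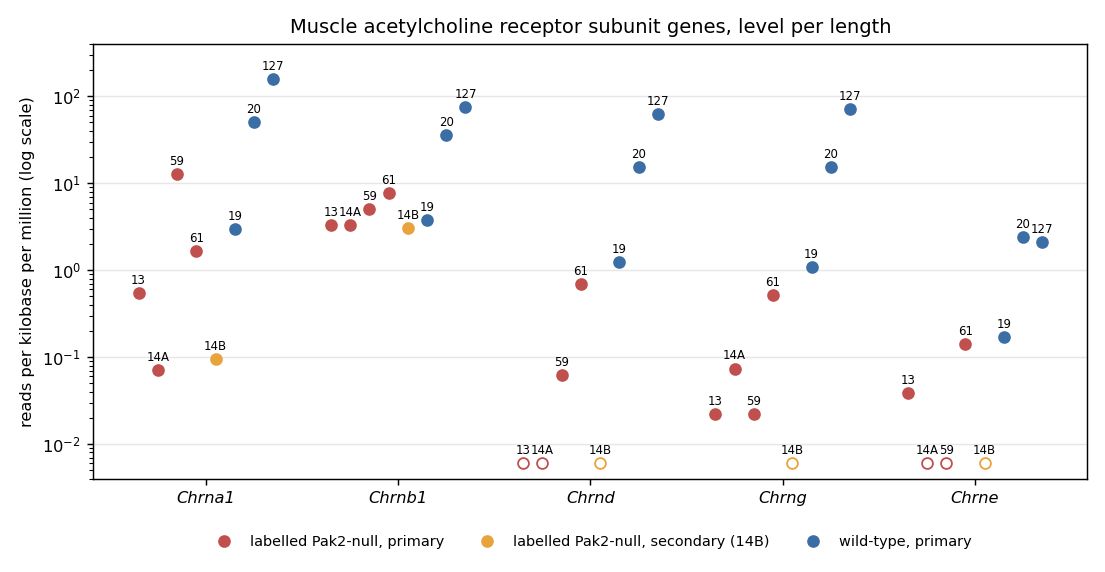
Level per length of the 5 muscle acetylcholine receptor subunit genes in each tumour, in RPKM (CPM over gene length in kilobases) on a log axis. Points are single tumours, numbered and coloured by group, and open points mark 0 counts. In tumour 127 the fetal subunit gene Chrng (71.7) is level with Chrnd (62.0) while the adult subunit gene Chrne (2.10) is far below, and Chrna1 of tumour 59 (12.6) stands apart from its group.

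Wild-type tumours 127 and 20, the richest in these genes, differed in which muscle genes they held. Myod1, Myog, Cdh15 and Chrna1 were 3.05 to 3.33 times as high in tumour 127 as in tumour 20, and Chrng was 4.65 times as high (95% interval 4.28 to 5.06, exact binomial, counting error only). Myf5 and Myf6, which lie 6725 bases apart on chromosome 10, went the other way, at 0.709 (0.602 to 0.833) and 0.558 (0.50 to 0.623) times. The fetal myosin heavy chain genes Myh3 and Myh8 were 7.67 and 9.01 times as high in tumour 127, while the adult fibre genes Myh4 (fast myosin), Ckm (muscle creatine kinase) and Pvalb (the calcium buffer of fast fibres) stood at 0.324, 0.191 and 0.162 times. Per length, Myh3 and Myh8 made up 45.0% of their sum with the adult fast myosin genes Myh1, Myh2 and Myh4 in tumour 127 and 7.40% in tumour 20. In the tumours labelled Pak2-null that share was 55.6% in tumour 14A, from only 55 fetal and 44 adult counts, 3.09% in tumour 59 and 11.8% in tumour 61, and it was 10.4% in wild-type tumour 19. All 14 genes of a fetal muscle list were higher in tumour 127, against 6 of 17 genes of an adult fibre list. The median log2 ratios were 1.57 and -0.36, and 0.01 over all tested genes with 20 counts in both tumours. The fetal list also holds Myh7, Tnni1, Tnnt1 and Tnnc1, which adult slow fibres use too. It further holds Igf2, H19, Nfix and Nfib, which are not contractile genes. Many genes of the adult list are fast fibre genes, so the 2 medians do not set fetal against adult genes alone. Each value is from a single tumour.

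**Figure D3:**
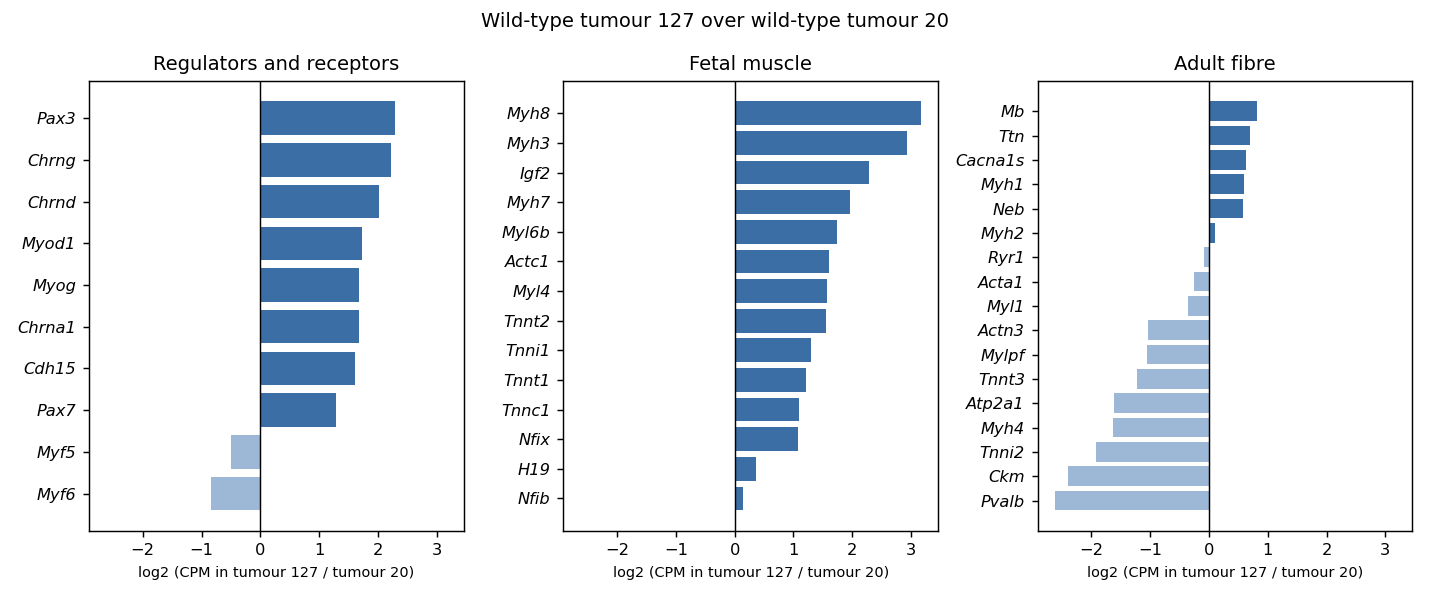
Log2 ratio of CPM in wild-type tumour 127 to that in wild-type tumour 20, for the 10 genes, a fetal muscle list and an adult fibre list. Dark bars are higher in tumour 127 and pale bars higher in tumour 20, with genes under 20 counts in either left out. Chrng stands at 2.22 and Myf6 at -0.84, while Myh8 (3.17) and Pvalb (-2.62) mark the ends of the other panels.

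Adult fibre genes, like most of the regulators, were far higher in wild-type tumours 20 and 127 than in the other tumours. Their sum was higher in tumour 20 than in tumour 127, unlike most of the regulators. The 18 genes of the adult fibre list summed to 14.9, 47.8, 460, 974 and 26.0 CPM in tumours 13, 14A, 59, 61 and 14B, against 3368, 40862 and 30306 CPM in wild-type tumours 19, 20 and 127. All 17 tested members had a lower mean in the tumours labelled Pak2-null, the median log2 fold change being -5.96. Tnnc2, the untested one, had at most 0.248 CPM. That is far below the troponin genes Tnnt3 and Tnni2 of the same list, at up to 3139 and 1626 CPM, and the reason was not tested. In edgeR 0 of the 17 passed after Benjamini-Hochberg adjustment, all 17 had an unadjusted p under 0.05 (12.9% of all tested genes), DESeq2 passed 17 (7.46%) and limma-voom 0 (0.162%). For every 1000 CPM of that sum, Myog stood at 3.49 and 5.75 CPM in tumours 59 and 61, against 5.23, 6.54 and 28.2 CPM in tumours 19, 20 and 127. Myod1 likewise stood at 1.21 CPM in tumour 59, from only 9 counts, and at 2.85 CPM in tumour 61, against 2.70, 2.49 and 11.1 CPM in tumours 19, 20 and 127. Set against adult fibre RNA, tumours 61, 19 and 20 lay close together in Myod1 and Myog, and tumour 127 stood apart. Cdh15 was close too in tumours 61, 19 and 20 (2.96, 2.33 and 2.61 CPM). Chrng (1.48, 0.895 and 1.05 CPM) and Chrnd (2.07, 1.09 and 1.10 CPM) were higher in tumour 61. The part of adult muscle in these levels was not tested.

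Other genes of the programme were taken from lists of upstream regulators, partners and inhibitors, satellite cell genes, fusion genes and endplate genes. Of their 69 tested genes 0 passed in edgeR after Benjamini-Hochberg adjustment over all genes, with 28 at an unadjusted p under 0.05 (27 lower and 1 higher), a level that 12.9% of all tested genes reached. DESeq2 passed 25 of these genes and limma-voom 0, where they passed 7.46% and 0.162% of all tested genes. The values below are therefore given without a call.

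Of 12 tested upstream regulators 11 had a lower mean in the tumours labelled Pak2-null, the median log2 fold change being -1.98. Eya1, a transcriptional cofactor gene of muscle precursors, had a log2 fold change of -3.98 (SE 0.90, adjusted p = 0.123 by edgeR with Benjamini-Hochberg adjustment), and the homeobox gene Pitx3 one of -7.44 (SE 1.18, adjusted p = 0.0955), at 0 or 1 count in each tumour labelled Pak2-null. For Eya4, a relative of Eya1, it was -2.60 (SE 0.82).

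The partners and inhibitors of the MyoD family were split, with 9 of 17 lower and a median log2 fold change of -0.16. Mef2c, a factor that acts with the MyoD family on muscle genes, had 52.0, 52.6, 45.1 and 45.5 CPM in tumours 13, 14A, 59 and 61, against 63.2, 453 and 815 CPM in tumours 19, 20 and 127. Its log2 fold change was -3.16 (SE 0.72, adjusted p = 0.123 by edgeR with Benjamini-Hochberg adjustment). Smarcd3, a chromatin remodelling subunit that works with MyoD, stood at -2.45 (SE 0.60). The E protein gene Tcf4 and the inhibitor gene Twist2 stood at -0.54 (SE 0.46) and 2.50 (SE 1.42). Id1, whose product holds E proteins away from MyoD, overlapped between the groups, at 6.58 to 68.4 CPM under the Pak2-null label and 34.9 to 52.9 CPM in wild-type tumours.

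Among 17 tested satellite cell genes 13 had a lower mean, the median log2 fold change being -2.17. Fgfr4, a growth factor receptor gene of myoblasts, had 0.124, 0.154, 0.679 and 0.982 CPM in tumours 13, 14A, 59 and 61, against 3.38, 77.4 and 202 CPM in tumours 19, 20 and 127. It ordered the tumours as Myog did among the wild-type tumours. Mstn (myostatin, a brake on muscle growth), Itga7 (the muscle laminin receptor) and Notch3 stood at -6.56 (SE 1.27), -4.12 (SE 0.88) and -2.23 (SE 0.51) in log2 fold change. Fgfr4 stood at -7.57 (SE 1.41), and adjusted p values of these 4 ran from 0.110 to 0.123 by edgeR with Benjamini-Hochberg adjustment. The 4 tested genes with a higher mean were Cd34, Vcam1, Dlk1 and Met. Their log2 fold changes were 3.68 (SE 1.66), 0.46 (SE 0.53), 0.08 (SE 1.12) and 0.05 (SE 0.70). Cd34 spanned 54.3 to 6308 CPM in primary tumours labelled Pak2-null and 62.7 to 185 CPM in wild-type tumours. Calcr, a receptor gene of quiescent satellite cells, did not follow either, at 0.433, 0, 1.73 and 2.60 CPM in tumours 13, 14A, 59 and 61. In tumours 19, 20 and 127 it was at 0, 0.248 and 0.193 CPM.

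Fusion genes included both muscle-specific fusogens. Tmem8c (myomaker) had 0, 0.308, 1.05 and 1.44 CPM in tumours 13, 14A, 59 and 61, against 4.45, 83.9 and 346 CPM in tumours 19, 20 and 127. Gm7325 (myomixer) had 0.124, 0, 0.432 and 1.16 CPM in tumours 13, 14A, 59 and 61, against 0.185, 25.0 and 52.6 CPM in tumours 19, 20 and 127, so that tumour 19 lay within the range of the tumours labelled Pak2-null. The log2 fold change of Tmem8c was -7.66 (SE 1.63) and that of Gm7325 -5.89 (SE 1.76), with -6.75 (SE 1.39) for the caveolin gene Cav3 and -2.72 (SE 0.56) for the membrane repair gene Dysf. Of 10 tested fusion genes 8 had a lower mean.

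Genes of the endplate, the patch of fibre membrane under the nerve, had a lower mean in 12 of 13 cases, the median log2 fold change being -1.38. Musk, the receptor kinase that clusters acetylcholine receptors, had 0.372, 0, 0.494 and 1.27 CPM in tumours 13, 14A, 59 and 61, against 4.08, 23.8 and 63.5 CPM in tumours 19, 20 and 127. Rapsn, which anchors the receptors, had 1.42, 1.28, 6.36 and 2.37 CPM in tumours 13, 14A, 59 and 61, against 3.01, 43.0 and 113 CPM in tumours 19, 20 and 127. For Rapsn, as for Chrna1, tumour 59 was above wild-type tumour 19. The lowest adjusted p of these lists was that of Lrp4, the agrin receptor gene (log2 fold change -2.84, SE 0.43, adjusted p = 0.0857 by edgeR with Benjamini-Hochberg adjustment), and Dok7, an activator of Musk, stood at -6.87 (SE 1.37).

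The fetal muscle list had a median log2 fold change of -6.92, with 14 of 14 lower, 13 of them at an unadjusted p under 0.05 (8.55% of all tested genes were lower at that level). In edgeR 0 passed after Benjamini-Hochberg adjustment, 12 passed DESeq2 (7.46% of all tested genes) and 1 passed limma-voom (0.162%). Its lowest adjusted p was 0.0540 by edgeR with Benjamini-Hochberg adjustment, for the fetal growth factor gene Igf2. Igf2 did not order the wild-type tumours as Myog did, at 2633, 973 and 4736 CPM in tumours 19, 20 and 127. H19 was highest in tumour 19, at 6153 CPM, against 3485 and 4496 CPM in tumours 20 and 127. Myh3 had 0.495, 2.11, 0.864 and 11.1 CPM in tumours 13, 14A, 59 and 61, against 37.1, 325 and 2491 CPM in tumours 19, 20 and 127. Myh8 had 0, 0.720, 2.28 and 11.1 CPM in tumours 13, 14A, 59 and 61, against 28.0, 226 and 2037 CPM in tumours 19, 20 and 127. In both genes every wild-type tumour was above every tumour labelled Pak2-null.

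**Figure D4:**
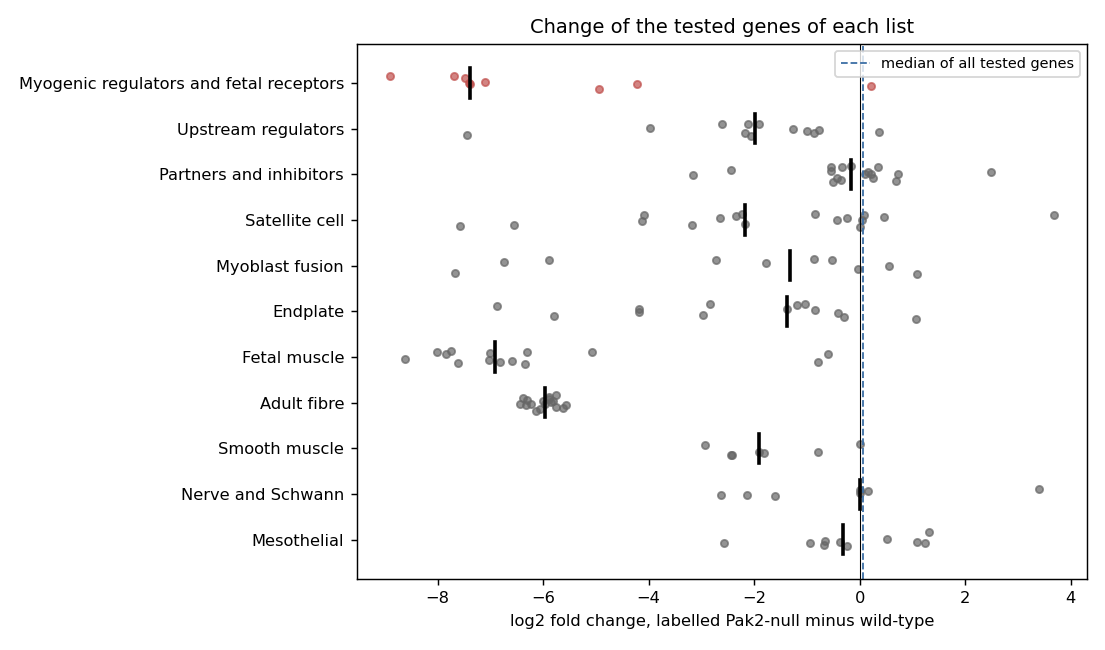
Log2 fold change (labelled Pak2-null minus wild-type) of each tested gene of the lists drawn, with the list median as a black bar and the median of all tested genes, 0.06, as a dashed line. The immune, brown fat, cardiac, endothelial and neuronal receptor lists are not drawn. Points are genes, jittered vertically. The regulators and receptors (median -7.38), the fetal muscle list (-6.92) and the adult fibre list (-5.96) lie far below 0, while partners and inhibitors (-0.16) and mesothelial genes (-0.31) lie around it.

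Lists of other cell types were set beside the muscle genes. Smooth muscle genes had a median log2 fold change of -1.90 with 6 of 7 lower, mesothelial genes -0.31 with 6 of 10 lower, endothelial genes -0.43 with 4 of 5 lower and nerve and Schwann cell genes 0.01 with 3 of 7 lower. The mesothelial median turned to 1.15 without tumour 19, 0.08 without tumour 13 and 0.24 with tumour 14B added. Immune genes had a median of 1.31 with 0 of 4 lower, which was -0.04 without tumour 14A and 0.46 with limma-voom, brown fat genes -2.38 with 3 of 4 lower, and 1 of 2 tested cardiac genes was lower. Over these 7 lists 0 genes passed in edgeR after Benjamini-Hochberg adjustment, with 9 at an unadjusted p under 0.05 (12.9% of all tested genes), 7 passed by DESeq2 (7.46%) and 0 by limma-voom (0.162%). The 8 cardiac markers summed to 0.991 to 9.87 CPM in primary tumours labelled Pak2-null and 21.5 CPM in tumour 14B, against 8.25, 27.1 and 81.1 CPM in wild-type tumours 19, 20 and 127. Nkx2-5, Myl7 and Nppa had at most 0.123 CPM in every tumour, and Ryr2 at most 0.771 CPM and Tbx5 at most 1.36 CPM. Myh6, a cardiac myosin gene, had 0 to 1.30 CPM in primary tumours labelled Pak2-null and 2.32, 24.8 and 79.3 CPM in tumours 19, 20 and 127. Tnni3 (cardiac troponin I) was present in all 8 tumours, at 0.805 to 7.10 CPM under the Pak2-null label and 1.35 to 2.36 CPM in wild-type tumours. Gata4 was highest in tumour 14B, at 18.3 CPM. That tumour held much RNA of the pancreas gene Ctrb1, and the source of its Gata4 was not tested. The 5 brown fat markers summed to 3.03 to 55.6 CPM in primary tumours labelled Pak2-null and 7.77 CPM in tumour 14B, against 24.4, 71.1 and 239 CPM in tumours 19, 20 and 127. Dio2, the deiodinase gene, gave most of those sums in tumours 59 (52.5 CPM), 20 (58.9 CPM) and 127 (228 CPM), and Cidea in tumour 61 (28.5 CPM). Ucp1, the defining gene of brown fat, had at most 0.248 CPM. Their part in the levels of the regulators was not tested.

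Across the 8 tumours, the genes most like the mean pattern of the 9 tested members included Murc, Dok7, Myl4, Iqsec3, Trim72, Itgb1bp2 and Tceal7. Likeness was measured as the root mean square difference in log2 CPM after each gene was centred on its own mean, and ran from 0.35 for Murc to 0.57 for Tceal7. Murc had 0.372, 0.308, 2.16, 3.64 and 0.311 CPM in tumours 13, 14A, 59, 61 and 14B, against 9.13, 120.0 and 285 CPM in tumours 19, 20 and 127. Among the members themselves, Chrnd (0.65), Pax7 (0.65) and Chrng (0.69) were closest to their shared mean. Chrna1 (1.68) and Pax3 (3.99) were farthest, and by this measure Pax3 was at place 14197 of 15412 genes.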

How the data were processed

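The authors deposited raw read counts per gene for 8 tumours in 1 table, with a gene length in bases. STAR, HTSeq, GRCm38 and mm10 are named per the submitters' processing notes, with versions, annotation release, strand setting and filters not given in the sources used here. The table held 0 columns of other samples and 0 entries that name no gene.

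Counts of the 4 primary tumours labelled Pak2-null and the 3 wild-type tumours entered an edgeR fit (version 4.0.16, R 4.3.3) (TMM, filterByExpr with a minimum count of 10 and minimum total of 15, quasi-likelihood test, Benjamini-Hochberg adjustment at 0.05 over 15412 genes). The fit was tested on simulated data with the same dispersion for every gene and changes only in genes with high mean counts. That test does not cover genes near 0 counts in a group, as most members were. DESeq2 1.42.0, limma 3.58.1 and other settings were alternatives. CPM used library sizes over tested genes and TMM factors over 8 tumours, log2 CPM a prior count of 2, and levels per length divided CPM by the deposited gene length. Each SE was obtained by dividing the log2 fold change by the root of the F statistic. Shared transcript stretches were searched with BLAST 2.17.0 in GENCODE M21.

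The members and gene lists were chosen with earlier results of these data known. In each list the genes named are up to 4 with the lowest p, and a set named by choice. Calcr, Cd34, Vcam1, Dlk1, Met, Chrna3, Chrnb3, Ctrb1, Pdpn, Calb2, Pvalb, Tnnc2 and the keratins were named after their values were seen. So were the cardiac and brown fat genes other than the lowest in p. Mymk and Mymx were found under the older symbols Tmem8c and Gm7325, and no protein sequence was used here. Some genes that this rule names are not reported here.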

Additional observations from a re-analysis of the deposited data

Results flagged for a closer look

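In 5 of the 10 genes, the highest of the 4 primary tumours labelled Pak2-null stood far from the other 3, with a gap to the next that took up most of the range of the group (above the 95% limit of Dixon's rule for 4 samples). Chance flags about 1 in 20 groups not chosen on their values. These genes were chosen on these counts and share tumours, so the flags describe the levels and are no test. Pax3 had 23.2 CPM in tumour 14A, with 0.124 CPM in the next tumour. Chrna1 had 55.3 CPM in tumour 59, with 7.22 CPM in the next. In tumour 61, Cdh15 had 2.89 CPM, Chrnd 2.02 CPM and Chrng 1.44 CPM, with 0.308, 0.185 and 0.206 CPM in the next tumours, which rest on 3 to 6 counts.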

How the results depend on the processing

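The number of genes passing was 11 of 15412. It was 11 to 13 with median-of-ratios, upper quartile or library size scaling or without a filter, 1149 with DESeq2, 25 with limma-voom and 191 with tumour 14B counted among the tumours labelled Pak2-null. Leaving out each tumour gave 0 to 59: 0 without 13, 59, 61 or 20, 8 without 14A, 59 without 19 and 1 without 127. Members passing were 2 without tumour 19, 7 with DESeq2, 1 with 14B added and 0 in the other settings. The cause was not tested. Of 125 log2 fold changes of members under alternatives, 124 moved by less than the spread between tumours, the exception being Chrnd without tumour 61 (-10.16). That spread, the SD of log2 CPM within the groups, was wide. The move of Chrna1 from -4.23 to -6.55 without tumour 59 still fell inside it, so nothing is read from this count. Only Pax3 changed sign. With library size alone, all 80 levels moved by less than the SD of CPM within a group. That SD was wide, for Myog 430 CPM about a mean of 380 CPM in wild-type tumours. This comparison could hardly have come out otherwise, and nothing is read from it. The endplate list's median was -2.82 without tumour 13 and -2.83 without tumour 14A, against -1.38. That of nerve genes was -1.24 without tumour 14A and -0.55 with limma-voom, against 0.01, and that of smooth muscle genes -2.63 without tumour 61, against -1.90. Signs also turned for mesothelial genes (1.15 without tumour 19), immune genes (-0.04 without tumour 14A) and partners and inhibitors (0.06 without tumour 127). No paired analysis was possible because the groups share no replicate numbers. Depth limits the tumours labelled Pak2-null most, where most member levels rest on under 10 counts.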

Other observations

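Some genes of the lists were high in single tumours, and were picked out after their values were seen. Lbx1, a homeobox gene of migrating limb muscle precursors and a Pax3 target in the embryo, had 10.02 CPM in tumour 14A, where Pax3 was also high, and 0.622 CPM in tumour 14B, where Pax3 was high as well. Tbx1, a gene of head muscle progenitors, had 48.5 CPM in wild-type tumour 19 and at most 9.97 CPM in the other 7 tumours.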
